A study of Mus musculus with 235 samples.

Results

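Pdxk, Pdxp and Aox1 encode a kinase that turns vitamin B6 into its coenzyme, a phosphatase that undoes this step and an oxidase that breaks the vitamin down. They are 3 of the 18146 genes on the array that could be named. They were taken by name, from probe sets annotated with the symbol alone. Of the 5 such probe sets, 3 were of Pdxk and 1 each of Pdxp and Aox1, and the set with the highest mean level stood for each gene.

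Vitamin B6 enters cells as pyridoxine, pyridoxal or pyridoxamine. Pyridoxal kinase, encoded by Pdxk, adds a phosphate group, and pyridoxal phosphate is the coenzyme of most aminotransferases, of many decarboxylases and of glycogen phosphorylase. Pyridoxal phosphatase, encoded by Pdxp and also known as chronophin for its action on cofilin, removes the phosphate, and aldehyde oxidase, encoded by Aox1, turns free pyridoxal into pyridoxic acid, which leaves in the urine. Isoniazid is a hydrazide used against tuberculosis, and it reacts with the aldehyde of pyridoxal and of its phosphate to form hydrazones, which is why patients on the drug are given pyridoxine.

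The mice were females of 31 inbred strains, aged 8 to 10 weeks. They received 100 mg/kg isoniazid or sterile water, the vehicle, by daily oral gavage for 3 days, and the left liver lobe was taken 24 h after the last dose. Vehicle animals gave 124 arrays, 4 per strain, and isoniazid animals gave 111: 4 per strain in 22 strains, 3 in 5 strains and 2 in 4 strains, after 13 deaths in 9 strains. In the labels 13 strains carry a code for steatosis, or fatty liver, under the drug: BALB/cJ, BTBR T+ tf/J, BUB/BnJ, C57BLKS/J, CBA/J, CE/J, DBA/2J, FVB/NJ, LG/J, NOR/LtJ, NZW/LacJ, SJL/J and SWR/J. The other 18 were 129S1/SvImJ, A/J, AKR/J, C3H/HeJ, C57Bl/6J, C57BR/cdJ, C58/J, KK/HIJ, LP/J, MA/MyJ, MRL/MpJ, NOD/LtJ, NON/LtJ, PL/J, PWK/PhJ, RIIIS/J, SEA/GnJ and SM/J. Animals of an inbred strain are nearly identical genetically, so a strain is 1 genetic background however many animals it has. Arrays of isoniazid animals show only survivors.

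Values are log2 expression levels, on which a difference of 1 is 2-fold. Array medians lay between 3.96 and 4.21, and 21 arrays, 11 vehicle and 10 isoniazid, had a narrower spread of values than the others. Of 235 arrays, 234 were closest to the mean of their own strain, and 1 vehicle array of NOD/LtJ was marginally closer to NOR/LtJ (r = 0.982 against 0.981 for its own strain). The hepatocyte markers were high, with Alb, encoding albumin, at 14.43 in vehicle animals. Liver tissue also holds macrophages, vessel, bile duct and blood cells, and in such bulk samples fewer cells of a type and less RNA per cell cannot be told apart. A probe set's level also depends on its probes, so levels are compared between strains and treatments and not between genes. A strain's sequence variant under a probe lowers the signal in all animals of that strain, and this was not tested.

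The 250 bases before the start of each gene are shown so that the stretch from which each gene is transcribed can be set beside the spread of its level over strains described after it. They are RefSeq sequences of build GRCm38.p6, 5′ to 3′ along the gene's own strand. Pdxk lies on the minus strand, with its window at chr10:78464949-78465198, Pdxp on the plus strand at chr15:78913669-78913918, and Aox1 on the plus strand at chr1:58029719-58029968. Capitals mark the GC box GGGCGG and the CCAAT box, each on either strand, so that CCGCCC and ATTGG are their reverse forms.
Pdxk: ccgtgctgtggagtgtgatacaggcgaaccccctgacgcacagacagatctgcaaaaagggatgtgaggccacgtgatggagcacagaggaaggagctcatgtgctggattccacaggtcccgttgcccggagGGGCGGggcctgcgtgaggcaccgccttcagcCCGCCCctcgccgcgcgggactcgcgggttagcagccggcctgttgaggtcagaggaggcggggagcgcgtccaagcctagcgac
Pdxp: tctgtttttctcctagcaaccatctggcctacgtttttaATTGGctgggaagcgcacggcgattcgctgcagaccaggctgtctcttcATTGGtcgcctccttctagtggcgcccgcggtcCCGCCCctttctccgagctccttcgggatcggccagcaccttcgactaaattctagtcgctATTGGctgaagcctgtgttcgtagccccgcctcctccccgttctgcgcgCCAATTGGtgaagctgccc
Aox1: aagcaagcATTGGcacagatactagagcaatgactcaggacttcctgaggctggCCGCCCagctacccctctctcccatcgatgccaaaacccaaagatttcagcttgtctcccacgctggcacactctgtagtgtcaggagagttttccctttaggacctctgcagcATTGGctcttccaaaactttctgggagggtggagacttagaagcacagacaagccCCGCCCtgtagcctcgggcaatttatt
The Pdxk window was 66.4% G and C with 21 CpG pairs, the Pdxp window 58.8% with 20, and the Aox1 window 52.8% with 5. Over 32851 windows of this length the medians were 52.4% and 6 CpG pairs, so Pdxk and Pdxp had CpG-rich starts and Aox1 did not. GC boxes numbered 2 in Pdxk, 1 in Pdxp and 2 in Aox1, and 32.7% of all windows held at least 1. CCAAT boxes numbered 5 in Pdxp, of which 1 pair overlaps in CCAATTGG, 2 in Aox1 and 0 in Pdxk, against 33.8% of all windows with at least 1. The letters TATAAA, held by 12.4% of windows, and TGACNNNGC, held by 10.2%, were in none of the 3, searched on both strands. These matches describe the reference sequence and say nothing of which factors bind there.

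Pdxk, the kinase that makes the coenzyme, differed in level between strains. In vehicle animals its strain means ran from 8.12 ± 0.17 in C57BR/cdJ to 9.51 ± 0.14 in BALB/cJ (mean ± SD, n = 4 animals each), a range of 1.39 on the log2 scale or 2.62-fold. The 4 C57BR/cdJ animals were at 7.94, 8.03, 8.19 and 8.32, and the 4 BALB/cJ animals at 9.32, 9.50, 9.55 and 9.67. Every BALB/cJ animal was thus above every C57BR/cdJ animal by at least the width of either group. The strain means differed by limma's F test (F = 8.95, adjusted p = 2.26e-21), as they did for 53.4% of all genes.

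Low Pdxk levels were found in 4 strains that lay apart from the mean of the others by limma, namely C57BR/cdJ, PWK/PhJ (8.21 ± 0.24), C58/J (8.25 ± 0.30) and MA/MyJ (8.53 ± 0.11). Their differences from the other strains were -0.73, -0.63, -0.59 and -0.31, with adjusted p from 1.19e-09 for C57BR/cdJ to 0.0388 for MA/MyJ. High levels marked RIIIS/J (9.24 ± 0.16), KK/HIJ (9.27 ± 0.17), LG/J (9.31 ± 0.15) and BALB/cJ, which lay above the others by 0.43, 0.47, 0.51 and 0.71 (adjusted p from 8.56e-09 for BALB/cJ to 0.0012 for RIIIS/J). Over all pairs of a gene and a strain, 3.98% lay apart on the low side and 4.23% on the high side. The other 23 strains, from NZW/LacJ (8.62 ± 0.28) to A/J (9.05 ± 0.19), lay between these groups and none passed.

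Between these ends the order of the strains was a slope without steps. The means of NZW/LacJ, BTBR T+ tf/J (8.65 ± 0.19), SM/J (8.69 ± 0.07), SJL/J (8.71 ± 0.25), FVB/NJ (8.72 ± 0.11), BUB/BnJ (8.76 ± 0.08), NOR/LtJ (8.77 ± 0.08) and C57Bl/6J (8.77 ± 0.07) came first. They were followed by CE/J (8.77 ± 0.13), LP/J (8.78 ± 0.10), DBA/2J (8.79 ± 0.25), NON/LtJ (8.79 ± 0.14), AKR/J (8.79 ± 0.22), MRL/MpJ (8.82 ± 0.10), SWR/J (8.89 ± 0.11) and PL/J (8.89 ± 0.25). Then came 129S1/SvImJ (8.91 ± 0.22), NOD/LtJ (8.91 ± 0.10), CBA/J (8.92 ± 0.08), SEA/GnJ (8.99 ± 0.07), C3H/HeJ (9.02 ± 0.15), C57BLKS/J (9.04 ± 0.09) and A/J. Of the 30 pairs of neighbours in this order, 0 had animals that did not overlap.

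**Figure D1:**
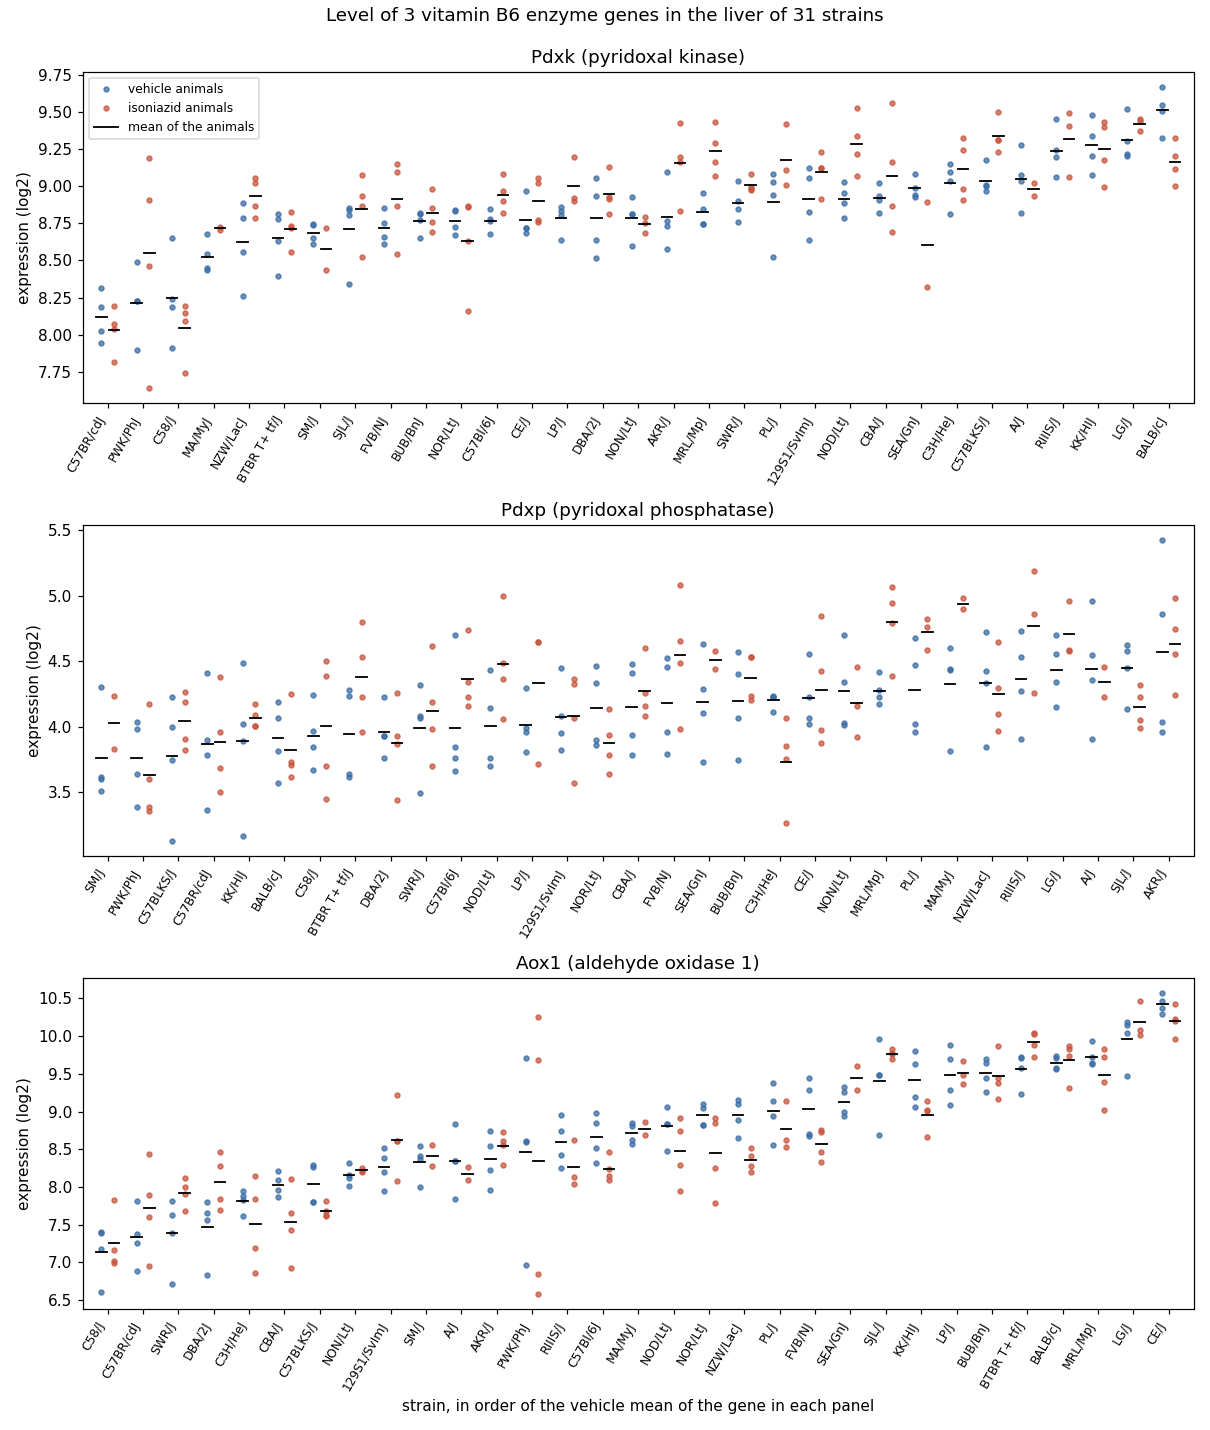
Log2 expression of Pdxk, Pdxp and Aox1 (y axes, each with its own range) in every vehicle animal (blue) and isoniazid animal (red) of 31 strains, ordered in each panel by the vehicle mean of that gene; short lines are means. Aox1 climbs from 7.14 in C58/J to 10.43 in CE/J, Pdxk from 8.12 to 9.51, and in Pdxp the scatter of animals within a strain is nearly as wide as the order of the strains.

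Under isoniazid the mean of Pdxk over strains was 8.92 ± 0.33 against 8.82 ± 0.30 in vehicle animals (SD, n = 31 strains). The mean change was 0.10 (SE 0.04, 95% interval 0.02 to 0.17), or 1.07-fold, with 22 strains higher and 9 lower. It did not pass limma's test over strains (adjusted p = 0.0501), which 20.0% of all genes passed, 10.2% higher and 9.85% lower. The adjusted p lay at the threshold, and 18 of 44 other settings of the analysis put Pdxk past it. Of these 18, 9 were among the 31 settings that left out 1 strain each. Over the 44 the change ran from 0.07 to 0.12 and adjusted p from 0.00194 to 0.242. The lowest p came with animals as replicates, a fit that counts the animals of 1 strain as independent backgrounds. All 44 settings gave a higher mean. Among them, leaving out the narrow-spread arrays gave 0.09 (adjusted p = 0.0249). Adding the scan date gave 0.10 (adjusted p = 0.04). Within the 10 scan dates the change ran from -0.05 to 0.23 and was above 0 in 9.

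Single strains gave changes of Pdxk in both directions. Vehicle animals of MRL/MpJ were at 8.74, 8.75, 8.85 and 8.96, and isoniazid animals at 9.07, 9.16, 9.29 and 9.43. In NOD/LtJ the vehicle animals were at 8.79, 8.88, 8.95 and 9.03 and the isoniazid animals at 9.07, 9.21, 9.34 and 9.53. In both strains every isoniazid animal was above every vehicle animal, with changes of 0.41 (SE 0.14) and 0.37 (SE 0.14). Without the NOD/LtJ vehicle array that was closer to NOR/LtJ, the lowest of the 4, the change of NOD/LtJ was 0.33.

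Lower values under isoniazid were seen in SEA/GnJ and BALB/cJ. Vehicle animals of SEA/GnJ were at 8.93, 8.94, 8.99 and 9.08, and its 2 surviving isoniazid animals at 8.32 and 8.89. In BALB/cJ, the strain with the highest vehicle level, isoniazid animals were at 9.0, 9.12, 9.20 and 9.32. In SEA/GnJ the groups did not overlap, although one drug animal lay close below the vehicle range, and in BALB/cJ the highest drug animal was just under the lowest vehicle animal. The changes were -0.38 (SE 0.17) and -0.35 (SE 0.14). The SEA/GnJ animal at 8.32 was on a narrow-spread array, and without it the change of that strain was -0.09, with 1 isoniazid animal left, so its value rested on that array.

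Counted over strains, the groups of Pdxk did not overlap in 5 strains on the higher side (MA/MyJ, LP/J, MRL/MpJ, NOD/LtJ and C57BLKS/J) and in 2 on the lower side, against 9.57% of all pairs of a gene and a strain. By limma within each strain, 0 of 31 strains passed after adjustment over genes, a threshold that 2.00% of all pairs passed. At an unadjusted p under 0.05 Pdxk had 6 strains higher, which were MRL/MpJ, NOD/LtJ, AKR/J (change 0.36), PWK/PhJ (0.34), NZW/LacJ (0.31) and C57BLKS/J (0.30). It had 2 lower, SEA/GnJ and BALB/cJ, and 11.5% of all pairs reached that p. The remaining 23 strains lay between C58/J (-0.20) and PL/J (0.28). Without their narrow-spread arrays the change was 0.16 in PL/J and 0.13 in LP/J, where it was 0.22 with all arrays. Likewise it was 0.24 in PWK/PhJ, 0.29 in NZW/LacJ, 0.35 in AKR/J and 0.40 in MRL/MpJ. The isoniazid animals of PWK/PhJ had an SD of 0.68, the widest of any group for Pdxk. The fit shares an SD of 0.20, so the p of that strain is too small. The interaction of strain and treatment had F = 1.80 by limma (adjusted p = 0.0567) and did not pass, where 17.0% of genes did. It passed with scan date as a term (F = 2.02, adjusted p = 0.0216) and after genes of low signal were left out (F = 1.81, adjusted p = 0.0364).

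The other 2 probe sets of Pdxk ranked the strains in a similar but not the same order at baseline, and their changes were weakly correlated with those of the brighter set. Their mean levels were 5.07 (1427930_at) and 6.00 (1427931_s_at), dimmer than the 8.87 of the set used (1427929_a_at). Vehicle means of the strains correlated with those of the brighter set at r = 0.80 and 0.77 over 31 strains, while the changes correlated at r = 0.09 and 0.20. All sets come from the same arrays, so these values are a description. C57BR/cdJ was lowest in all 3 sets, and C58/J and PWK/PhJ were among the lowest 4 in all 3. At the high end the sets differed. BALB/cJ ranked 31, 29 and 29 from the bottom in the bright set and the 2 dimmer sets, whereas 129S1/SvImJ ranked 21, 31 and 31. LG/J ranked 30, 19 and 18, and RIIIS/J 28, 18 and 16, so neither was among the highest strains in the dimmer sets.

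Over strains the mean change was 0.11 (SE 0.05, adjusted p = 0.0985) in the first dimmer set and 0.17 (SE 0.06, adjusted p = 0.0365) in the second, with 20 strains higher in each. In this fit of 34717 probe sets 17.2% passed by limma, and the bright set had an adjusted p of 0.0559. C58/J was the clearest disagreement, with a change of -0.20 in the bright set and of 0.78 and 1.11 in the dimmer sets. C57BR/cdJ gave -0.09, 0.20 and 0.64, and -0.02 in the bright set without its narrow-spread array. The mean of the 3 sets changed by 0.12 (SE 0.04, adjusted p = 0.0097), which passed. By Affymetrix naming, a set ending in _s_at may also detect transcripts of related genes and one ending in _a_at several transcripts of 1 gene. Which transcripts the 3 sets detect was not tested.

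Pdxp, the phosphatase that returns pyridoxal phosphate to pyridoxal, was the 1 member of the 3 that passed the test over strains. Its level was 4.13 ± 0.22 in vehicle animals and 4.27 ± 0.34 under isoniazid (SD, n = 31 strains). It rose by 0.14 (SE 0.05, 95% interval 0.05 to 0.23), or 1.1-fold, with an adjusted p of 0.0254 by limma, and was higher in 22 strains and lower in 9. The signal was dim, with a mean of 4.18 that lay inside the range of the array medians, and RMA values compress differences at such levels.

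The rise of Pdxp rested on many small differences. The largest were in MA/MyJ (change 0.62), MRL/MpJ (0.53) and NOD/LtJ (0.47), and the strains that went furthest the other way were C3H/HeJ (-0.47), SJL/J (-0.30) and NOR/LtJ (-0.27). MA/MyJ vehicle animals were at 3.82, 4.43, 4.44 and 4.60, and its 2 isoniazid animals at 4.90 and 4.98. MRL/MpJ vehicle animals were at 4.17, 4.22, 4.28 and 4.42, and isoniazid animals at 4.39, 4.79, 4.95 and 5.07. The groups of MA/MyJ did not overlap and those of MRL/MpJ did, by 1 drug animal.

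C3H/HeJ had the lowest change of Pdxp among the 31 strains. Its vehicle animals were at 4.11, 4.23, 4.23 and 4.23, and its isoniazid animals at 3.27, 3.75, 3.85 and 4.06, all below. The counts of strains without overlap were 1 higher and 1 lower, against 9.57% of all pairs of a gene and a strain. At an unadjusted p under 0.05 by limma, 2 strains were higher (MA/MyJ and MRL/MpJ) and 0 lower, and 0 strains passed after adjustment. Of all pairs, 11.5% reached that p and 2.00% passed after adjustment. Without the doubtful NOD/LtJ array, the change of that strain was 0.37. The interaction of strain and treatment had F = 1.11 (limma, adjusted p = 0.503).

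Of 43 other settings, 39 kept Pdxp past the threshold, and all 43 gave a higher mean. In 31 of the 43 only 1 strain was left out, so most of the data were the same, and all 31 kept the call. The added 1.5-fold threshold, which Pdxp did not reach, is not among the 43. The call ended when only the 22 strains without deaths were used (change 0.08, adjusted p = 0.326), and without the animals numbered 1 (0.11, adjusted p = 0.112), 3 (0.15, adjusted p = 0.0662) or 4 (0.13, adjusted p = 0.0893). Within scan dates the change ran from -0.07 to 0.31 and was above 0 in 9 of 10.

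At baseline Pdxp separated the strains least. Vehicle means ran from 3.76 ± 0.37 in SM/J, 3.76 ± 0.31 in PWK/PhJ and 3.78 ± 0.47 in C57BLKS/J to 4.44 ± 0.44 in A/J, 4.45 ± 0.22 in SJL/J and 4.57 ± 0.70 in AKR/J (SD, n = 4). SM/J animals were at 3.51, 3.60, 3.62 and 4.30, and AKR/J animals at 3.96, 4.04, 4.86 and 5.43. The lowest and highest strain thus overlapped. The range was 0.81, or 1.76-fold. The F test gave F = 1.68 (limma, adjusted p = 0.04), a test that 53.4% of all genes passed. By limma 0 strains lay apart from the others, against 8.21% of all pairs of a gene and a strain. Among neighbours, 0 of 30 were free of overlap. The remaining 25 strains lay between C57BR/cdJ (3.86 ± 0.43) and LG/J (4.44 ± 0.24).

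Aox1, which oxidises pyridoxal and many drugs and other aldehydes, had the widest range of strain levels of the 3 genes. Vehicle means ran from 7.14 ± 0.38 in C58/J to 10.43 ± 0.12 in CE/J (SD, n = 4), a range of 3.28 on the log2 scale or 9.74-fold. C58/J animals were at 6.60, 7.17, 7.39 and 7.41, and CE/J animals at 10.29, 10.37, 10.46 and 10.57. The lowest animal of each was on a narrow-spread array. The other C58/J animals lay inside the range of the C57BR/cdJ vehicle animals, 6.89 to 7.81. The highest C58/J animal was far below the lowest CE/J animal. The F test between strains gave 15.47 (limma, adjusted p = 5.92e-34), a test that 53.4% of all genes passed.

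Low Aox1 levels set 7 strains apart from the others by limma. They were C58/J, C57BR/cdJ (7.33 ± 0.38), SWR/J (7.39 ± 0.48), DBA/2J (7.46 ± 0.43), C3H/HeJ (7.81 ± 0.14), CBA/J (8.03 ± 0.15) and C57BLKS/J (8.04 ± 0.28). Their differences from the mean of the other strains ran from -1.62 for C58/J (adjusted p = 5.18e-11) to -0.70 for C57BLKS/J (adjusted p = 0.0341). C58/J and C57BR/cdJ were thus low in both Pdxk and Aox1. Over all pairs of a gene and a strain, 3.98% lay apart on the low side. The lowest vehicle animals of C58/J, SWR/J (6.71) and DBA/2J (6.83) were on narrow-spread arrays.

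High levels set 9 strains apart. They were SJL/J (9.41 ± 0.53), KK/HIJ (9.42 ± 0.36), LP/J (9.49 ± 0.37), BUB/BnJ (9.51 ± 0.20), BTBR T+ tf/J (9.56 ± 0.23), BALB/cJ (9.65 ± 0.09), MRL/MpJ (9.73 ± 0.14), LG/J (9.96 ± 0.33) and CE/J. Their differences ran from 0.72 for SJL/J (adjusted p = 0.0249) to 1.77 for CE/J (adjusted p = 5e-12). On the high side 4.23% of all pairs lay apart. The lowest vehicle animals of SJL/J (8.69), KK/HIJ (9.05), LG/J (9.47) and CE/J were on narrow-spread arrays. KK/HIJ, BALB/cJ and LG/J were high in both Pdxk and Aox1, whereas MRL/MpJ and CE/J were near the middle of the Pdxk order. Among neighbours, the step from LG/J, whose highest animal was at 10.19, to CE/J was the 1 of 30 without overlap.

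The strains between were NON/LtJ (8.15 ± 0.13), 129S1/SvImJ (8.26 ± 0.25), SM/J (8.33 ± 0.23), A/J (8.34 ± 0.41), AKR/J (8.37 ± 0.35), PWK/PhJ (8.47 ± 1.13), RIIIS/J (8.59 ± 0.32) and C57Bl/6J (8.66 ± 0.30). Above them lay MA/MyJ (8.71 ± 0.14), NOD/LtJ (8.80 ± 0.24), NOR/LtJ (8.95 ± 0.15), NZW/LacJ (8.95 ± 0.23), PL/J (9.0 ± 0.35), FVB/NJ (9.03 ± 0.40) and SEA/GnJ (9.13 ± 0.19). None of these 15 lay apart from the others by the test. Related strains were not always alike, since C57BLKS/J, C57BR/cdJ and C57Bl/6J spanned 7.33 to 8.66.

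PWK/PhJ, a strain derived from wild mice, did not have 1 level of Aox1. Its vehicle animals were at 6.96, 8.59, 8.60 and 9.71, and its isoniazid animals at 6.58, 6.84, 9.68 and 10.25. The isoniazid animals at 6.58 and 6.84 shared a scan date, and all other animals of the strain were scanned on other dates. The part of scan date in this spread was not tested. The SDs of 1.13 and 1.89 were the widest of any group, where the median over groups was 0.25, and the animal at 6.96 was on a narrow-spread array. Pdxk was also spread in these animals, at 7.90, 8.23, 8.23 and 8.49 with vehicle and at 7.64, 8.46, 8.91 and 9.19 with isoniazid, while all 8 arrays were closest to PWK/PhJ. The limma fit shares 1 SD between groups, so the errors given for this strain are too small. For Aox1 the shared SD was 0.42, wider than the median of 0.25 over groups. The errors given for strains with a narrow spread are thus too large.

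Aox1 did not change with isoniazid by the test. The means over strains were 8.71 ± 0.82 with vehicle and 8.66 ± 0.81 with isoniazid (SD, n = 31). The change was -0.05 (SE 0.06, 95% interval -0.17 to 0.07, adjusted p = 0.619 by limma), 15 strains were higher and 16 lower, and 0 of 44 other settings passed. Within the 10 scan dates the change ran from -0.55 to 0.30 and was above 0 in 5.

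Single strains gave changes in both directions. DBA/2J was at 6.83, 7.57, 7.66 and 7.80 with vehicle and at 7.69, 7.84, 8.28 and 8.47 with isoniazid, a change of 0.61 (SE 0.30). NZW/LacJ was at 8.65, 8.89, 9.11 and 9.15 with vehicle and at 8.19, 8.28, 8.41 and 8.52 with isoniazid, a change of -0.60 (SE 0.30). The groups overlapped in DBA/2J, by 1 animal, and not in NZW/LacJ, the 1 strain of 31 without overlap. Of all pairs of a gene and a strain, 9.57% were without overlap. DBA/2J and NZW/LacJ were also the only strains with an unadjusted limma p under 0.05 (0.0418 and 0.0441), which 11.5% of all pairs reached. After adjustment 0 strains passed, against 2.00% of all pairs. SWR/J (0.54), C57BR/cdJ (0.39), CBA/J (-0.50) and NOR/LtJ (-0.50) came next. Each of these 6 strains had a narrow-spread array. Without the DBA/2J vehicle animal at 6.83, which was on such an array, the change of DBA/2J was 0.39. Likewise the change was 0.32 in SWR/J without 1 vehicle animal, 0.33 in C57BR/cdJ and -0.30 in CBA/J without 1 isoniazid animal each, and -0.07 in NOR/LtJ without 2 isoniazid animals. In NZW/LacJ it was -0.70 without 1 vehicle animal, and the groups still did not overlap. The interaction had F = 1.28 (limma, adjusted p = 0.34), so a difference between strains in the response was not shown. This test and those within strains use the shared SD of 0.42, to which the wide PWK/PhJ groups add. They were not run without that strain.

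**Figure D2:**
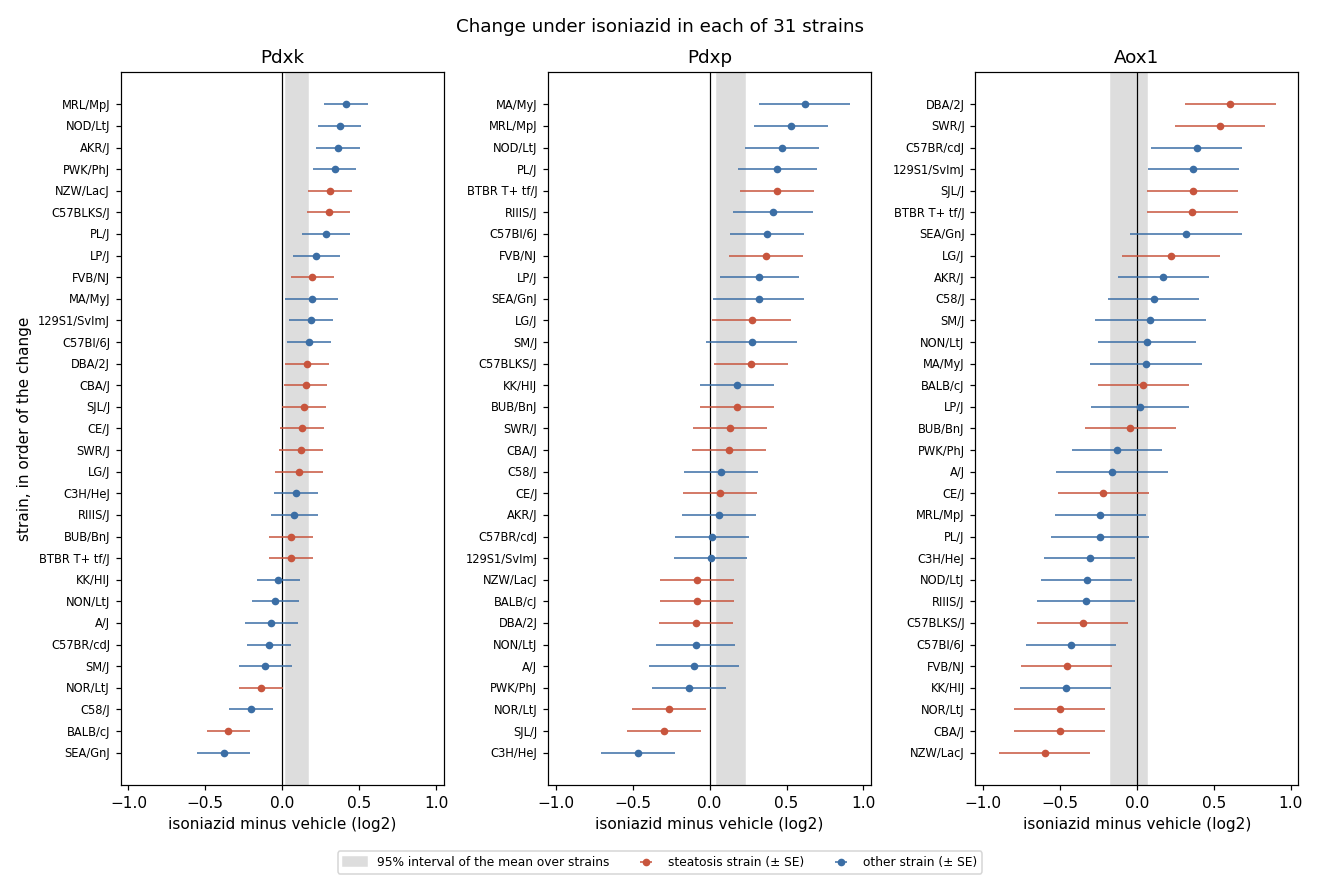
Isoniazid minus vehicle (x axis, log2) for Pdxk, Pdxp and Aox1 in each of 31 strains, ordered by the change, with bars of ± SE from the limma fit and steatosis strains in red; the grey band is the 95% interval of the mean over strains. The band lies above 0 for Pdxk (0.02 to 0.17) and Pdxp (0.05 to 0.23) and spans 0 for Aox1 (-0.17 to 0.07), and strains of both colours lie on both sides of 0.

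The variation of each gene was divided between strain, treatment, their interaction and animals. Of the sum of squares over the 235 arrays, strain took 79.7% for Aox1, 68.3% for Pdxk and 34.7% for Pdxp, where the median over all genes was 25.1%. The treatment took 0.1%, 2.1% and 2.5%, with a median of 0.6% over all genes. Strain has 30 degrees of freedom and treatment 1, so these sums do not set strain and drug on an even footing. Per degree of freedom strain took 2.66% for Aox1, 2.28% for Pdxk and 1.16% for Pdxp, so that for Pdxp the treatment share was the larger. The strain share was larger than that of Aox1 in 2.1% of genes, larger than that of Pdxk in 5.8% and larger than that of Pdxp in 35.7%. Animals within groups took 52.7% of the variation of Pdxp, 22.5% of that of Pdxk and 16.6% of that of Aox1. The median over all genes was 59.4%, so all 3 members lay below it. These shares are descriptive and carry no test.

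**Figure D3:**
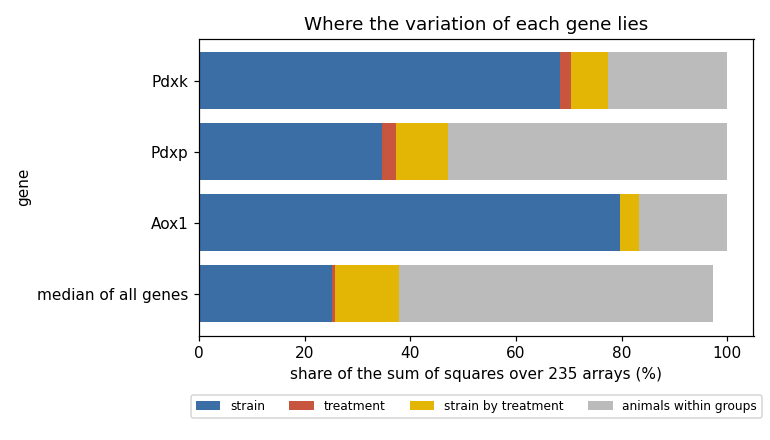
Share of the sum of squares over 235 arrays (x axis, %) taken by strain, treatment, their interaction and animals within groups, for the 3 genes and as separate medians over all genes, so that the last bar need not reach 100%. Strain takes 79.7% for Aox1 and 68.3% for Pdxk (median over all genes 25.1%), and animals within groups take 52.7% for Pdxp (median 59.4%).

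Whether the strains that developed fatty liver differed in these enzymes was asked next. The change of Pdxk was 0.10 ± 0.17 in the 13 steatosis strains and 0.10 ± 0.22 in the other 18 (SD over strains), and the difference had a 95% interval of -0.15 to 0.15. For Pdxp the changes were 0.08 ± 0.23 and 0.18 ± 0.28 (interval of the difference -0.29 to 0.08), and for Aox1 they were -0.04 ± 0.43 and -0.06 ± 0.27 (-0.22 to 0.26). All 3 had an adjusted p of 1 by limma. No gene of the array passed this comparison (0%), and 2.71% of genes had an unadjusted p under 0.05. Pdxk was higher in 11 of 13 and 11 of 18 strains, Pdxp in 8 and 14, and Aox1 in 6 and 9. Deaths had occurred in 1 of these 13 strains and in 8 of the other 18.

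In vehicle animals, too, the groups of strains did not differ by the test. Aox1 was at 8.95 ± 0.95 in steatosis strains and 8.54 ± 0.69 in the others, a difference of 0.41 (95% interval -0.17 to 0.98, adjusted p = 0.988 by limma). The steatosis strains ran from 7.39 to 10.43 and the others from 7.14 to 9.73, so the groups overlapped over most of their range. Pdxk differed by 0.10 (-0.11 to 0.32, adjusted p = 0.988) and Pdxp by 0.01 (-0.16 to 0.17, adjusted p = 0.999). Again no gene passed (0%), and 4.06% had an unadjusted p under 0.05. With animals in place of strains as replicates the Aox1 difference passed (adjusted p = 1.23e-05), a fit that counts the animals of 1 strain as independent backgrounds.

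The 3 genes did not vary together in a way that passed a test. Over 31 strains, 6 relations were tested by permutation, with 100000 resamples. The smallest p was for the vehicle levels of Pdxk and Aox1 (r = 0.36, permutation p = 0.0434, adjusted p = 0.26), for which Spearman's rho was 0.13 (permutation p = 0.501). Without BALB/cJ and C57BR/cdJ, the strains farthest from the median of Pdxk, r was 0.20. The changes of Pdxk and Pdxp had r = 0.25 (permutation p = 0.166, adjusted p = 0.26), rho = 0.29 (permutation p = 0.111) and r = 0.32 without SEA/GnJ and BALB/cJ.

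Other genes followed each member more closely across strains, as a description over 31 strain values that share their arrays. Vehicle levels of Pdxk were most like those of 4931406C07Rik (r = 0.84), Hint3 (0.83) and Ivd (0.83), the last of which encodes isovaleryl-CoA dehydrogenase of leucine breakdown. Its changes were most like those of Fam102a (0.75), Nmrk1 (0.73), a nicotinamide riboside kinase, and Slc46a3 (0.73). For Pdxp the vehicle levels were most like those of Alad (0.72), of heme synthesis, Ift46 (0.70) and Hdhd3 (0.70), and the changes like those of Lpcat3 (0.61), Src (0.59) and Phf1 (0.58). For Aox1 they were Cyb5b (0.67), Tmem237 (0.67) and Kdm1b (0.65) at baseline and Lonp2 (0.70), Hspa1b (0.66) and BC004004 (0.66) for the change. They were picked as the highest of all other genes, and no p is given.

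Aox1 lies beside other genes of its family. On chromosome 1 the protein-coding genes follow in the order Sgo2a, Aox1, Aox3, Aox4, Aox2 and Bzw1. Aox3, the other aldehyde oxidase of mouse liver, fell by 0.30 under isoniazid (SE 0.07, adjusted p = 0.0013 by limma, lower in 24 of 31 strains), from 8.15 ± 1.23 to 7.85 ± 1.35. Its vehicle level ran from 4.15 in C58/J to 9.75 in NZW/LacJ (F = 40.89). C58/J was lowest for both oxidases, and C57BR/cdJ, DBA/2J, CBA/J and C57BLKS/J were among the lowest 7 for both. C3H/HeJ was not, since it was rank 5 from the bottom for Aox1 and rank 28 for Aox3 (9.12). CE/J, highest for Aox1, was at 8.50 and rank 14 for Aox3. Aox4 was dim (2.31) and did not change by the test (0.02, adjusted p = 0.778), and Aox2 was not analysed here. The difference in change between Aox1 and Aox3 was not tested.

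Among the other genes of vitamin B6 handling, 9 of 11 were measured, of which 1 rose, 2 fell and 6 did not pass, with a median change of 0.00. The median over all genes was also 0.00, and 33.3% of the list passed beside 20.0% of all genes. Slc19a2, a thiamine transporter whose human counterpart has been reported to take up pyridoxine, fell by 0.20 (adjusted p = 0.00172, lower in 25 strains). Aldh2, the mitochondrial aldehyde dehydrogenase, fell by 0.15 (adjusted p = 1.24e-05, lower in 30), and Aldh1a1, which oxidises retinal and other aldehydes, rose by 0.09 (adjusted p = 0.0383, higher in 22). The call of Aldh1a1 held in 29 of 44 other settings among them 20 of 31 with a strain left out, with adjusted p from 0.00379 to 0.115, the last without the narrow-spread arrays (0.07).

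The others had small mean changes over strains that did not pass. Plpbp, the pyridoxal phosphate binding protein that guards the coenzyme, gave -0.03, and Alpl, the alkaline phosphatase that lets circulating pyridoxal phosphate enter cells, gave 0.02. Phospho2, a phosphatase that can act on pyridoxal phosphate, gave 0.00. The transporters Slc19a1 and Slc19a3 gave 0.08 and -0.04, and Aldh9a1 gave 0.08. Aldh9a1 was higher in 27 strains and lower in 4, with changes from -1.38 to 0.40. Its interaction of strain and treatment passed (F = 6.83, adjusted p = 3.91e-14 by limma). Its mean change passed in 2 of 44 other settings. For the genes of this paragraph the adjusted p over strains by limma lay between 0.148 for Slc19a1 and 0.991 for Phospho2. Phospho1 was not analysed here.

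Aldehyde oxidase carries a molybdenum cofactor, and of the 12 genes listed for that cofactor and its enzymes 11 were measured. Gphn, which builds molybdenum into the cofactor, rose by 0.13 (adjusted p = 0.0118), Mtarc2, an amidoxime-reducing enzyme, rose by 0.14 (adjusted p = 0.000195), Aox3 fell, and 8 did not pass, with a median change of 0.02. The call of Gphn ended when its probe sets were averaged (0.02, adjusted p = 0.826) and without the animals numbered 3 (0.13, adjusted p = 0.0617) or 4 (0.12, adjusted p = 0.0569). The genes that did not pass were Aox4, Xdh (0.07), the xanthine dehydrogenase, Suox (-0.03), the sulfite oxidase, the cofactor synthesis genes Mocs1 (-0.01), Mocs2 (0.04) and Mocs3 (-0.02), Mocos (0.02), which matures the cofactor for the oxidases, and Mtarc1 (-0.03). In all, 27.3% of the list passed, beside 20.0% of all genes. This list too was brighter, with a median vehicle level of 8.15 against 5.16, and was not compared with genes of like level.

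**Figure D4:**
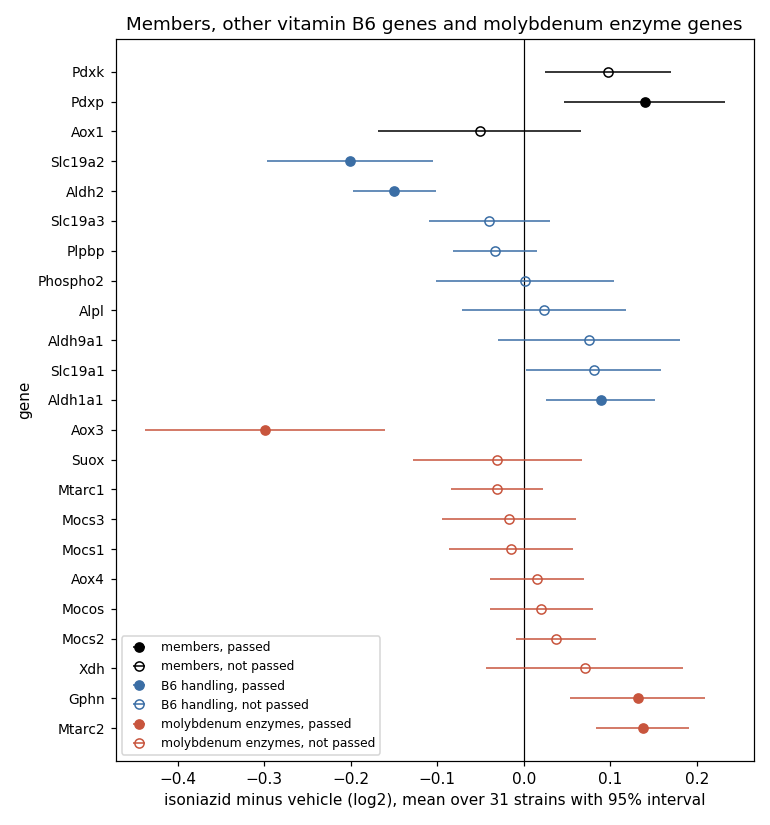
Mean change under isoniazid over 31 strains (x axis, log2, with 95% intervals) of the 3 members (black), other vitamin B6 genes (blue) and genes of molybdenum enzymes (red); filled circles passed limma at an adjusted p under 0.05. Pdxp (0.14), Aldh1a1, Gphn and Mtarc2 lie above 0 as filled circles, and Slc19a2, Aldh2 and Aox3 (-0.30) below it.

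Of 45 genes of enzymes that use pyridoxal phosphate 42 were measured, and 16 rose, 5 fell and 21 did not pass. The share that passed was 50% beside 20.0% of all genes, and the median change was 0.03. The list had a median vehicle level of 8.67 against 5.16 over all genes, and its share was not compared with genes of like level. Agxt2, a mitochondrial aminotransferase, rose by 0.43 and was higher in 31 of 31 strains. Alas1, which starts heme synthesis, rose by 0.80, Phykpl, which breaks down phosphohydroxylysine, by 0.30, and Kynu, the kynureninase of tryptophan breakdown, by 0.34. Their adjusted p ran from 6.91e-09 for Agxt2 to 3.98e-07 for Kynu. Csad, the decarboxylase of taurine synthesis, fell by 1.39 and was lower in 30 strains (adjusted p = 1.22e-11). Kyat1, a kynurenine aminotransferase, fell by 0.27, Pygb, a glycogen phosphorylase, by 0.20 and Sgpl1, the sphingosine phosphate lyase, by 0.15. In strains without deaths Kyat1 gave -0.20 (adjusted p = 0.0877), and without the animals numbered 1 Sgpl1 gave -0.13 (adjusted p = 0.0705); in each of these settings 3 genes of the list fell in place of 5. Sds, Sdsl and Gcat were not analysed here.

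Markers of other cell types and controls of RNA quality also differed between the treatments. Of 12 macrophage markers, 0 rose and 9 fell, with a median change of -0.22, and their mean level over strains ran from 6.22 to 8.58 with vehicle and from 5.79 to 8.92 with isoniazid. The share that passed was 75% for macrophage markers and from 12.5% to 50% for the other types, beside 20.0% of all genes. The macrophage markers had a median vehicle level of 7.78 against 5.16 over all genes. Of 6 hepatocyte markers, 1 rose and 2 fell. Of 8 endothelial markers 2 fell, of 8 stellate cell markers 1, of 5 bile duct markers 1, of 4 B cell markers 2, of 5 T and NK cell markers 1, of 4 neutrophil markers 1 and of 3 red cell markers 1, and 0 rose. The difference between 3′ and 5′ control probe sets, a gauge of RNA integrity, was higher under isoniazid by 0.23 ± 0.20 for pyruvate carboxylase (27 of 31 strains), by 0.00 ± 0.09 for actin and by -0.05 ± 0.13 for the transferrin receptor (SD over strains). The part of these shifts in the values of Pdxk, Pdxp and Aox1 was not tested.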

How the data were processed

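Liver RNA was hybridised to Affymetrix mouse expression arrays with 3′ labelling, 1 array per animal. Per the submitters' processing notes, the authors used RMA and Affymetrix Power Tools, with no version given there, and what they deposited is 1 log2 value for each probe set and array. RMA corrects background, forces all arrays to the same distribution and fits 1 value per probe set, so a shift common to all genes is removed and low values are compressed. In tests over strains the precision is set by the number of strains and the spread between them, and within strains by the number of arrays.

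Of 44721 probe sets, 34717 had 1 gene symbol in the platform annotation, 872 had several, 9072 had none and 60 were controls. By Entrez number 34514 matched a mouse gene table of GRCm38.p6, and 0 symbols changed. This left 18146 genes, and for the 8949 with over 1 probe set the one with the highest mean was used.

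Isoniazid minus vehicle means of 31 strains were tested against 0 and between steatosis codes with limma 3.58.1 (R 4.3.3, lmFit and eBayes, two-sided). Strain differences, changes within strains and the interaction were tested in a fit of 62 groups over 235 arrays with 173 residual degrees of freedom, adjusted by Benjamini-Hochberg over 18146 genes (within a strain for single strains), and an adjusted p under 0.05 passed. The labels number separate animals within each strain. Relations were tested by two-sided permutation (numpy 2.4.6, with ranks by scipy 1.17.1). The fits were tested on simulated data.

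The members, the gene lists and the alternatives were chosen with earlier results of these data known. Named genes are the 3 members, all measured genes of the vitamin B6 and molybdenum lists, the 4 highest and 4 lowest t among passing pyridoxal phosphate enzymes, and the 3 genes most like each member. Strains are named at the 3 highest and 3 lowest levels and changes, and others after their values were seen. Alternatives were scan date as a term, median-centred arrays, averaging the probe sets of a gene, dropping genes under the 40th percentile of mean level, trend and robust eBayes, leaving out narrow-spread arrays, each animal number or each strain, the animal number as a block, only strains without deaths, animals as replicates, and an added 1.5-fold threshold.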

Additional observations from a re-analysis of the deposited data

Results flagged for a closer look

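In groups of 4 animals, the highest or lowest animal was tested for lying far from the other 3. Of 159 groups of the 3 genes, 4 held such an animal, and chance gives about 1 in 20 groups. For Pdxk, 1 vehicle animal of CE/J was at 8.96 while the other 3 were at 8.69 to 8.72, and 1 vehicle animal of SJL/J was at 8.34 while the others were at 8.81 to 8.85. The SJL/J array was one of those with a narrow spread. For Pdxp, 1 vehicle animal of C3H/HeJ was at 4.11 beside 3 at 4.23, and 1 vehicle animal of SM/J was at 4.30 beside 3 at 3.51 to 3.62.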

How the results depend on the processing

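The mean change of Pdxk over strains was above 0 in all 44 other settings and that of Pdxp in all 43 in which it was tested; Pdxp lay below the 40th percentile of mean level and was not tested without dim genes. Pdxk did not pass with the settings of the report and passed with scan date as a term (0.10), median-centred arrays (0.11), the mean of its probe sets (0.12), dim genes left out (0.10), narrow-spread arrays left out (0.092), the replicate block (0.10, adjusted p = 0.0375 by limma), only strains without deaths (0.12) and animals as replicates (0.10). Leaving out 1 animal number or 1 strain gave 0.071 to 0.12, and 9 of 31 left-out strains put it past the threshold. Pdxp gave 0.11 to 0.17 with these left out, and its change of 0.14 was under 1.5-fold. Its call ended in strains without deaths (0.085) and without the animals numbered 1, 3 or 4. Aox1 gave -0.083 to 0.019, above 0 without the animals numbered 1. With the 1.5-fold threshold 54 genes passed in place of 3636.

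The F test of Pdxp between strains no longer passed with centred arrays (1.62) and ran from 1.23 to 2.01 with an animal number left out. The interaction of Pdxk passed with scan date (2.02) and without dim genes (1.81). Pdxk passed within 1 strain with the mean of its probe sets and within 0 to 2 strains with an animal number left out. The steatosis difference in change was 0.002 for Pdxk with scan date, and with an animal number or strain left out it ran from -0.062 to 0.033 for Pdxk and from -0.051 to 0.087 for Aox1. In vehicle levels it was -0.036 for Pdxp without narrow-spread arrays and ran from -0.032 to 0.052 with an animal number or strain left out. With animals as replicates 35 genes passed for the change and 1957 for the vehicle level, Aox1 among them (0.41), and leaving out an animal number or strain gave 0 to 1 gene for the vehicle level.

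Among other genes that did not pass, the sign changed with the mean of probe sets for Phospho2 (-0.0063), Mocs1 (0.014) and Mtarc1 (0.083), and with animals or strains left out for Phospho2 (-0.028 to 0.042), Alpl (-0.011 to 0.097), Aox4 (-0.0046 to 0.028) and Mocs1 (-0.039 to 0.0099). Over 111 pairs of same-numbered animals of a strain the deviations had a median r of -0.02 (range -0.42 to 0.78), with 23 pairs above 0.1. Most pairs thus did not deviate together, and the animals were not treated as paired. Animals with different numbers were not compared in this way, so pairing within some strains cannot be told from these values. The block changed no call for Pdxp or Aox1. Precision is limited by the number of strains in tests over strains and by the number of arrays in tests within them. For Pdxp a signal near the array medians limits it as well.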
